A study of Mus musculus with 3 samples.

Results

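The 10 genes described here are erythroid regulators and red cell proteins: the transcription regulators Gata1, Zfpm1, Klf1, Nfe2 and Gfi1b, the red cell membrane proteins Slc4a1, Ank1 and Rhd, and the carbonic anhydrases Car1 and Car2. They were chosen by name, with earlier results of these data known, and 12 probes of the 55681 non-control probes on each array carry these names. Expression was measured in cells of the mouse yolk sac that carried both VE-cadherin, which joins endothelial cells to each other, and CD45, found on blood cells, and were sorted for them by flow cytometry. In 2 Tie-2-Etv2 samples an Etv2 transgene was switched on by a Cre transgene under Tie-2, a promoter of endothelial and early blood cells, and 1 sample came from control embryos whose alleles the labels do not give. Strain was mixed in every sample (B6/CBA and others), no sample was treated after the sort, and the embryonic stage, E10.5, is stated for the control sample only. Pooling of embryos and the litters behind each sample are not stated in the labels, so the spread between the Tie-2-Etv2 replicates may be technical.

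Yolk sac is the site where the first red cells of the embryo form. GATA1 drives red cell genes together with its cofactor FOG1, which Zfpm1 encodes, and KLF1 activates globin and red cell membrane genes. NF-E2, whose large subunit Nfe2 encodes, and GFI1B, a repressor, act in red cells and also in megakaryocytes, the platelet-forming cells, as do GATA1 and FOG1. Band 3, the product of Slc4a1, exchanges chloride for bicarbonate and is tied to the spectrin skeleton by ankyrin, the product of Ank1. The Rh protein encoded by Rhd sits in the same membrane, and carbonic anhydrases interconvert carbon dioxide and bicarbonate in the red cell cytosol.

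Probes are 60 bases long, and the sequences below show where on a transcript the members were read. The Car1 probes, printed whole, lie at chr3:14767486-14767545 and chr3:14770171-14770230 (mm9, minus strand). They begin at bases 615 and 541 of the transcript, per the deposited files, so 14 bases of transcript but 2625 bases of genome lie between them.
Car1, transcript base 615: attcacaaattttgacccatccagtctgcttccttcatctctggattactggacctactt
Car1, transcript base 541: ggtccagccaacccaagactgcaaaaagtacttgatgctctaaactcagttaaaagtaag
The Car2 probe lies on the same chromosome at chr3:14900206-14900265 (plus strand), 129975 bases from the nearer Car1 probe. For Gata1, Gfi1b and Zfpm1, a stretch of 30 bases of the probe is printed with AATAAA, the hexamer that commonly precedes the end of a messenger RNA, in capitals. Of the 12 member probes, 4 hold the hexamer.
Gata1, bases 27 to 56 of the probe: ggtatttggttaAATAAAtgtcagtgtcaa
Gfi1b, bases 31 to 60 of the probe: gttgatgtaaatgtaAATAAAggtgggttt
Zfpm1, bases 25 to 54 of the probe: cccttgacacttAATAAAgacattcggtgt
The Gata1 probe is at chrX:7536392-7536451 (minus strand) and the Gfi1b probe at chr2:28464982-28465041 (minus strand). The 2 Zfpm1 probes, at chr8:124861092-124861151 and chr8:124861087-124861146 (plus strand), share 55 bases and so are not separate readings of the gene. GC content of the 12 probes was 35% to 55%.

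Promoter sequences from RefSeq (GRCm38.p6), 250 bases before to 50 bases after the start of the gene, were matched for 5 members. GATAA, the core that GATA factors bind, is in capitals where it was found on either strand; on the printed strand of Klf1 it reads TTATC. The stretches are chr2:28621933-28622232 (minus strand) for Gfi1b, chr8:84901732-84902031 (plus strand) for Klf1 and chr4:134864286-134864585 (plus strand) for Rhd, shown because these 3 hold it.
Gfi1b: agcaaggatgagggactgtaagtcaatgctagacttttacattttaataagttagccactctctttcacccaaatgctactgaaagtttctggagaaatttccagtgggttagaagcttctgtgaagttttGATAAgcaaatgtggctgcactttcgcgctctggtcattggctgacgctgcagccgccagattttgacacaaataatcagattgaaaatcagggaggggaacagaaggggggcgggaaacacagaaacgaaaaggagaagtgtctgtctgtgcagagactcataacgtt
Klf1: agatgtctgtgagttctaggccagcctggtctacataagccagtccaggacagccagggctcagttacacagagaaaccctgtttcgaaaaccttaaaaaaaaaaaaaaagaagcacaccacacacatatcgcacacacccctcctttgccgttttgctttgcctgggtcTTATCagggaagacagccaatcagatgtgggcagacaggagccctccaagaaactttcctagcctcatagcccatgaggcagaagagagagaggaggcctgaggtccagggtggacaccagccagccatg
Rhd: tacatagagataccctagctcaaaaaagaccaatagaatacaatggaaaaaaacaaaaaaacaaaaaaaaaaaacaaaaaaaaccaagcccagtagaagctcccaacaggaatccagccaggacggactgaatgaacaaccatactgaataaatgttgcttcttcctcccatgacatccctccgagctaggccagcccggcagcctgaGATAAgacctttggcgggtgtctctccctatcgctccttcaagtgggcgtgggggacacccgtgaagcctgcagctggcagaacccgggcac
The first base of the match lies 119 bases before the start of Gfi1b, 80 before that of Klf1 and 42 before that of Rhd. GATAA was found in 25.4% of 32851 promoters of this length. The CACCC core that Krüppel-like factors bind was found in all 5 matched member promoters (Gata1, Gfi1b, Klf1, Rhd and Zfpm1) and in 57.5% of all promoters, and CAGGAAG, a form of the ETS core, in that of Gata1 and in 13.3% of all. AGGAA, the shorter ETS core that CAGGAAG contains, was found in the promoters of Gata1, Klf1 and Rhd and in 66.7% of all, and TGAGTCA, a core of the site that NF-E2 binds, in none of the 5 and in 5.20% of all. Of the genes with GATAA, Gfi1b was above control on the Tie-2-Etv2 arrays and Klf1 and Rhd were below it, as given in what follows.

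Well above background were 24222 probes on Tie-2-Etv2 replicate 1, 27018 on replicate 2 and 25466 on the control array, and replicate 1 was dimmer, with a 75th percentile of 1199 intensity units among detected probes, against 2092 on replicate 2 and 2073 on the control array. A level is the log2 signal minus the log2 of this percentile on the same array, and a difference is the level on a Tie-2-Etv2 array minus that on the control array. Etv2 was higher by 4.42 on replicate 1 and by 3.22 on replicate 2 with the probe of the higher average level, and by 2.66 and 1.98 with the other. Cdh5, which encodes the sorted VE-cadherin, was higher by 4.46 and 2.60, and Ptprc, which encodes CD45, was lower, at -0.42 and -0.50. A gene counts as called without a test when it is at least 2-fold apart from control in the same direction on both Tie-2-Etv2 arrays, and 3 arrays limit the precision of every value.

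Car2 and Gfi1b were higher than in control by 2-fold or more on each Tie-2-Etv2 array, Slc4a1 and Rhd were at least 2-fold lower in both, Nfe2, Zfpm1, Klf1 and Car1 lay on the same side of control on both arrays but did not reach 2-fold on each, and Gata1 lay on opposite sides. Of the 6 members above background on all 3 arrays, 2 were called higher (Car2 and Gfi1b), where 2.91% of genes so detected were, and 1 lower (Slc4a1), where 3.44% were. The 9 members tested add Rhd to the lower calls, where 3.92% of 19583 genes tested were called higher and 6.64% lower. Rhd, Klf1 and Car1 entered the test through the control array alone, where they were higher, so their direction is partly set by the filter and the larger count supports nothing. The members were chosen with earlier results of these data known, so neither count tests the list. Ank1 was the tenth member and was not above background on any array. In limma's test over all probes no member passed an adjusted p of 0.05, and neither did any gene (0% of genes); at an unadjusted p under 0.05 there were 2110 genes, 10.8% of those tested (864 higher, 1246 lower). With normexp, another background correction, 3.14% of genes passed the adjusted test, Car2 and Gfi1b among them, 1.59% were called higher, the same 2 members among them, and 2.51% lower, no member among them. With no filter on dim probes 1.22% of genes passed, and no member. The arrays hold RNA of a whole sorted fraction, so fewer cells of a type and less RNA per cell cannot be told apart.

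**Figure D1:**
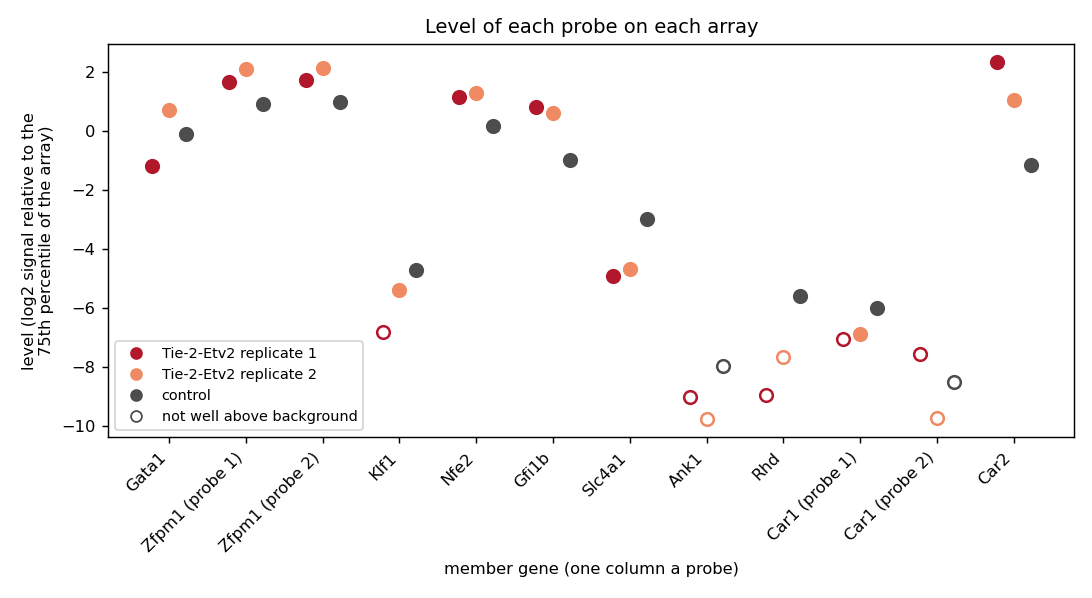
Level (log2 signal relative to the 75th percentile of the array) of each of the 12 probes on each of the 3 arrays, with open circles where a probe was not well above background. Heights of different probes are not comparable; within a probe, both Tie-2-Etv2 circles lie above the control circle for Car2, Gfi1b, Nfe2 and Zfpm1 and below it for Klf1, Slc4a1, Rhd and the first Car1 probe.

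Among the regulators, Gata1 had intensities of 524 and 3438 units in Tie-2-Etv2 replicates 1 and 2, against 1925 units in control. Scaled to their arrays, the levels were -1.19 and 0.72 in the Tie-2-Etv2 arrays and -0.11 in the control array, so replicate 1 lay below control and replicate 2 above it. The differences of -1.09 and 0.82 averaged -0.13 ± 0.89 (SE of the fit, 2 arrays against 1). Their gap of 1.91 was the widest among the tested members, where the median gap over all genes was 0.315 and 2.95% of genes had one as wide. No direction can be given for Gata1, and the cause of the gap was not tested.

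Zfpm1, the gene of the GATA1 cofactor, had levels of 1.71 and 2.14 in the Tie-2-Etv2 arrays, against 0.99 in the control array. Both Tie-2-Etv2 levels lay above control, by 0.72 and 1.15, and the fitted difference was 0.94 ± 0.37 (SE; limma adjusted p = 0.522). The overlapping probe gave 0.77 and 1.21, within 0.0533 of the first on each array.

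Nfe2 had levels of 1.15 and 1.30 in the Tie-2-Etv2 arrays and 0.15 in the control array. It was higher on both Tie-2-Etv2 arrays, 1.997-fold on replicate 1, just under the 2-fold mark, and 2.22-fold on replicate 2. The fitted difference was 1.07 ± 0.33 (SE; limma adjusted p = 0.396). The gap between the arrays, 0.151, was the smallest of the tested members.

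Gfi1b, the gene of the repressor, was the regulator furthest above control. Its intensities were 2084 and 3179 units in the Tie-2-Etv2 arrays, against 1053 units in control, and its levels 0.80 and 0.60, against -0.98. The Tie-2-Etv2 levels lay close to each other and both well above control: 3.42-fold on replicate 1, 2.99-fold on replicate 2 and 3.20-fold in the mean. Of all genes tested, 2.49% were as high. The fitted difference was 1.68 ± 0.33 (SE; limma adjusted p = 0.268).

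Klf1, the activator of globin genes, was dim. Its probe, at chromosome 8, 87428881 to 87428940 (mm9), had 10.74 ± 2.83 and 50.1 ± 5.68 intensity units in Tie-2-Etv2 replicates 1 and 2, against 78.8 ± 8.51 units in control (error estimate of the scanner software). It was not well above background on replicate 1. The levels of -6.80 and -5.39 lay below the -4.72 of control, and the differences of -2.09 and -0.67 placed only replicate 1 past 2-fold. The fitted difference was -1.38 ± 0.70 (SE; limma adjusted p = 0.636). With normexp it was -0.27.

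**Figure D2:**
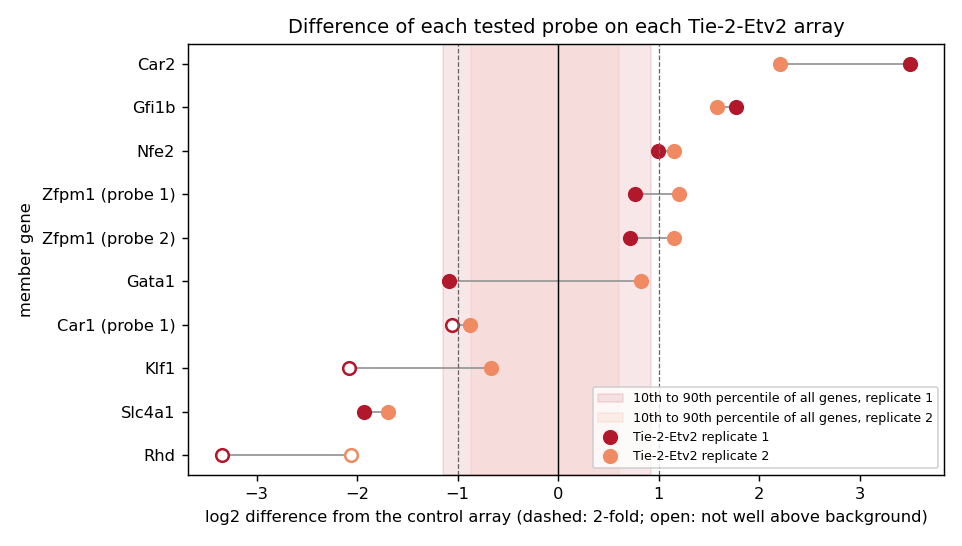
Log2 difference of each tested member probe from the control array, on Tie-2-Etv2 replicates 1 and 2, over bands that span the 10th to 90th percentile of all genes on each replicate. Car2, Gfi1b and Nfe2 lie right of both bands and Slc4a1 and Rhd left of both, while Gata1 spans 0.

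Among the membrane proteins, Slc4a1 was the only member above background on all 3 arrays that was called lower. The probe for this anion exchanger gene lies at chromosome 11, 102210256 to 102210315 (mm9), and had 40 and 82.5 intensity units in the Tie-2-Etv2 arrays, against 265 units in control. Its levels were -4.91 and -4.66 in the Tie-2-Etv2 arrays and -2.97 in the control array, so both lay below control and near each other. That was 3.82-fold lower on replicate 1, 3.24-fold lower on replicate 2 and 3.52-fold lower in the mean, with a fitted difference of -1.81 ± 0.34 (SE; limma adjusted p = 0.256). Of all genes, 4.93% were as low. With normexp the difference was -1.07, and -0.93 on replicate 1, under the 2-fold mark.

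Rhd, the Rh blood group gene, was well above background on the control array alone. Its probe, at chromosome 4, 134452018 to 134452077 (mm9), had 2.46 ± 2.47 and 10.4 ± 2.74 intensity units in the Tie-2-Etv2 arrays, against 43.1 ± 5.36 units in control. The first of these is no larger than its error, and it is a surrogate that the scanner software set. Rhd was therefore lower than in control, with bounds of 2.36-fold for replicate 1, 3.88-fold for replicate 2 and 3.03-fold for the mean of both. Each was measured from the lowest detected level of each array or the probe's own value, whichever was higher. The lowest detected level is not a strict limit of detection. On replicate 1 it was -6.83, and Klf1, at -6.80, was not well above background. The fit, which took the values as deposited, surrogate included, gave -8.29 in Tie-2-Etv2 and -5.59 in control, with an adjusted p of 0.316 by limma. The bounds hold for this processing only: with normexp the difference was -0.26, with 0.02 on replicate 1 and -0.54 on replicate 2.

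Ank1, the erythroid ankyrin gene, had 2.31 and 2.41 intensity units in the Tie-2-Etv2 arrays and 8.42 units in control with its single probe, which starts at base 6319 of the transcript. None of these was well above background, so no fold is given. The relatives Ank2 and Ank3, ankyrins of other tissues, were not above background on Tie-2-Etv2 replicate 1, nor was Ank3 on replicate 2. Ank2 differed by -1.13 on replicate 2, and Ank3 was at least 1.42-fold lower, a bound on the mean of both arrays measured as for Rhd.

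Car2, a carbonic anhydrase of many tissues, had 6053 and 4315 intensity units in the Tie-2-Etv2 arrays, against 924 units in control, and levels of 2.34 and 1.04, against -1.17. Both Tie-2-Etv2 levels lay well above control and replicate 1 lay above replicate 2. It was 11.3-fold higher on replicate 1, 4.63-fold on replicate 2 and 7.24-fold in the mean, the highest difference of the members and one that 0.715% of genes matched or passed. The fitted difference was 2.86 ± 0.65 (SE; limma adjusted p = 0.2995). Over all alternatives run on 3 arrays it ranged from 2.74 to 2.86, with adjusted p from 3.67e-07 (normexp) to 0.455.

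Car1, the isoform most typical of red cells, was near background with both of the probes printed above. The probe at transcript base 615 had 8.99 and 17.7 intensity units in the Tie-2-Etv2 arrays, against 32.3 units in control, and was not well above background on replicate 1. Its differences of -1.05 and -0.88 lay below control on both arrays, but with normexp they were 0.32 and -0.28, so no direction holds across the corrections. The probe at base 541 had 6.42 and 2.51 units in the Tie-2-Etv2 arrays and 5.77 units in control, none of them well above background.

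**Figure D3:**
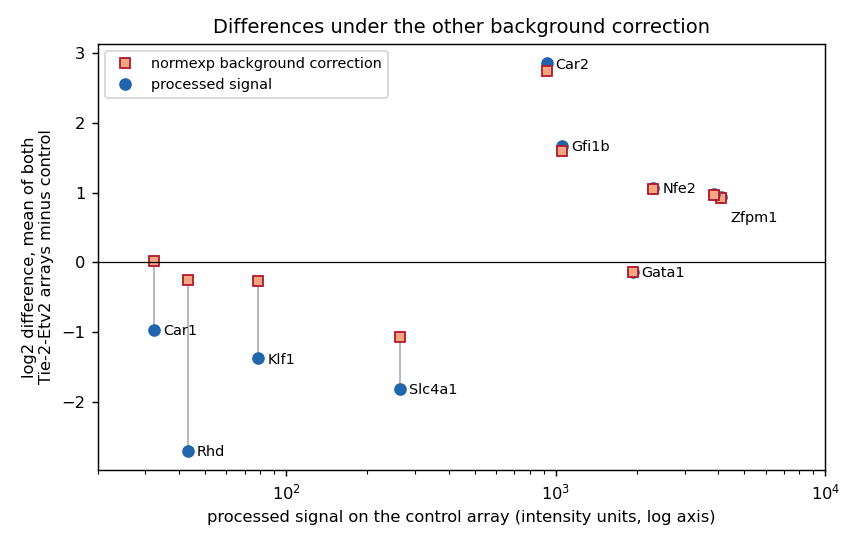
Log2 difference of each tested member probe (mean of both Tie-2-Etv2 arrays minus control) against its processed signal on the control array in intensity units on a log axis, for normexp (squares) and for the processed signal used in the text (circles). The 4 members under 300 units, Car1, Rhd, Klf1 and Slc4a1, move toward 0 with normexp, and Car2, the brighter member that moves most, goes to 2.74, against 2.86 with the processed signal.

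The members below control on both arrays (Slc4a1, Klf1, Rhd and Car1) were read from control signals of 32.3 to 265 intensity units, and those above it on both (Car2, Gfi1b, Nfe2 and Zfpm1) from 924 to 4112 units. Brightness also depends on the probe, so these ranges give the precision of the readings and no order of expression.

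**Figure D4:**
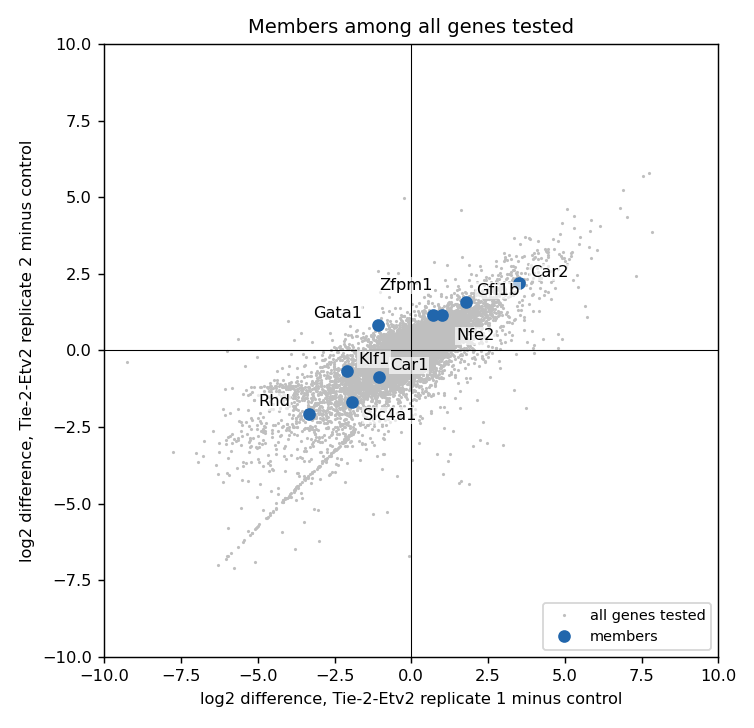
Log2 difference from control on Tie-2-Etv2 replicate 1 (x axis) and replicate 2 (y axis) for all 19583 genes tested, 1 point a gene, with the 9 tested members in blue. Members lie at the upper right or lower left, except Gata1, at -1.09 and 0.82.

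By the distance between pairs of differences over the 3 arrays, among 17205 genes above background on all of them, the genes nearest to Car2 were Klrb1c (3.57 and 2.10), Cap2 (3.62 and 2.14) and Rasip1 (3.64 and 2.27). Nearest to Slc4a1 were Dmpk (-1.97 and -1.68), Mitf (-1.87 and -1.69) and Pf4 (-1.88 and -1.64). With 3 arrays many genes share a pattern: 8 genes lay within 0.25 of Car2 and 27 of Slc4a1.

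Relatives of the members are shown for comparison, beside 3.92% of all genes tested called higher and 6.64% called lower. Of 5 other GATA genes, Gata2, a factor of stem cells, progenitors and mast cells, was higher by 2.38 and 1.68 on replicates 1 and 2, and Gata6, a factor of endoderm and mesoderm, was lower, at -1.14 and -1.33, without being above background on replicate 1. Zfpm2, which encodes the other FOG protein, was higher by 3.26 and 2.02. Of 4 Krüppel-like factor genes, Klf2 (-2.50 and -1.53) and Klf4 (-1.81 and -1.37) were called lower and none higher. Of 14 other carbonic anhydrase genes 9 were tested, and Car12, a membrane-bound form, was called higher, at 1.27 and 1.39. Rhag, Rhbg and Rhcg, of the Rh family, were not tested. Slc4a2 (0.16 and -0.05) and Slc4a7 (0.08 and 0.006), bicarbonate transporters, were not called.

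Of 57 other erythroid genes listed, 48 were tested. Of these, 4 were called higher and 4 lower, 8.33% each, against 3.92% and 6.64% of all genes tested. The 48 had a median difference of 0.03, against 0.07 over all genes. The list is not confined to genes expressed only in red cells, so this median does not stand for red cell genes alone. Among the 43 above background on all 3 arrays, 3 were called higher and 2 lower, where 2.91% and 3.44% of genes so detected were. Among 23 partners and receptors, Gata2 and Myb, a progenitor regulator (1.21 and 1.04), were called higher and none lower. Tal1 (0.76 and 0.52) and Lmo2 (1.16 and 0.90), which bind DNA in a complex with GATA1, lay above control on both arrays without being called. Epor, the erythropoietin receptor, differed by -2.79 on replicate 1 and -0.51 on replicate 2. Of 15 membrane and skeleton genes tested, Xk (1.34 and 1.03) was called higher among the 10 above background on all 3 arrays, and none lower. Tmcc2, called higher, and Kel and Add2, called lower, were detected only where they were high. Their bounds on the mean of both arrays, measured as for Rhd, lie under 2-fold. Tmcc2 was above background in the Tie-2-Etv2 arrays alone, at least 1.67-fold higher. Kel, a blood group gene, and Add2, an adducin of the skeleton, were above background in the control alone and at least 1.76-fold and 1.44-fold lower.

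Of the red cell soluble proteins 10 were tested and 2 were called lower: Ahsp, the chaperone of alpha globin (-1.83 and -2.10), and Blvrb, biliverdin reductase B (-1.18 and -1.45). Of 7 globin genes tested, 5 were called lower, at mean differences of -2.21 (Hba-x) to -1.93 (Hba-a2). Hbb-b1 was higher by 3.93 on replicate 1 and 0.64 on replicate 2, and Hbb-b2 differed by 2.30 and -0.18. Near-identical globin copies may share signal. Among the erythroid genes not tested, Rhag, which encodes a partner of the Rh protein, and Pklr, a pyruvate kinase of red cells and liver, were well above background on Tie-2-Etv2 replicate 2 alone. Sptb, Epb42, Sox6, Trim10 and Nxpe2 were above background on no array. Of these, Sptb encodes the beta spectrin of the red cell skeleton and Epb42 a protein that binds band 3.

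**Figure D5:**
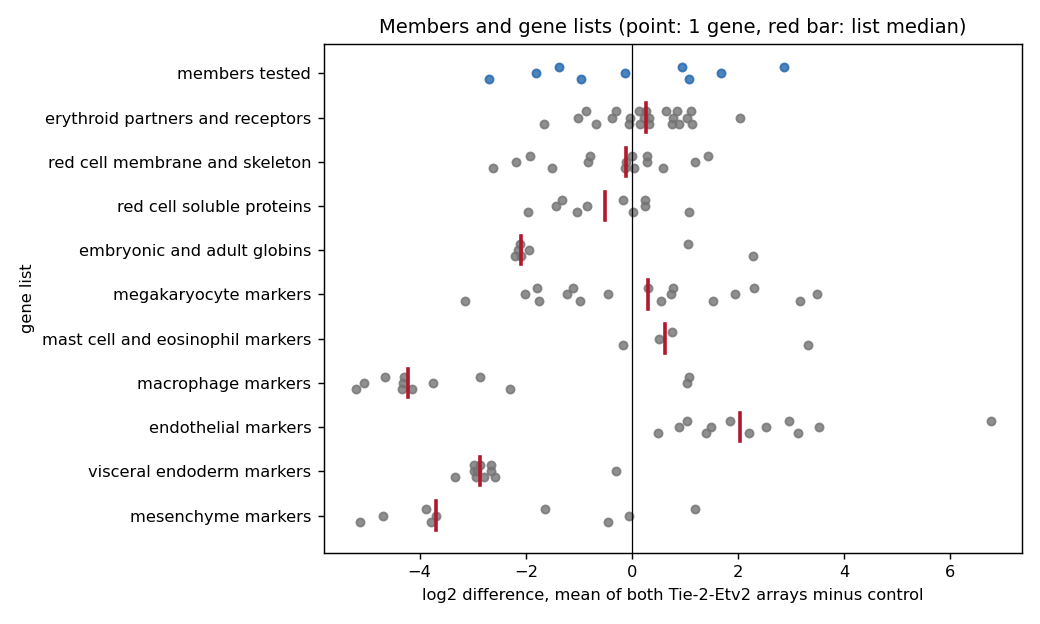
Log2 difference (mean of both Tie-2-Etv2 arrays minus control) of each tested gene in the members and in each list, 1 point a gene, with a red bar at the list median. The erythroid partners and membrane genes centre near 0, at 0.27 and -0.11, and the red cell soluble proteins at -0.51. The globins centre at -2.09, and the macrophage and endothelial markers at -4.23 and 2.03.

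Markers of other cell types also differed, and are set beside all genes tested, of which 3.92% were called higher and 6.64% lower. Of 17 megakaryocyte markers 5 were called higher, with Mmrn1 (3.97 and 2.997), Clec1b (3.82 and 2.50) and Itga2b (2.12 and 2.47) leading, and 4 lower, among them Ppbp, which differed by -1.98 on replicate 2 and was undetected over background on the replicate 1 array. Among the 13 above background on all 3 arrays, 5 were called higher and 2 lower, Pf4 (-1.88 and -1.64) and Vwf (-1.33 and -1.13). Over all 17 the median difference was -0.24 on replicate 1 and 0.85 on replicate 2, so the replicates lay on opposite sides of control. The summed level of all 17, to which bright probes add most, was 4.07 and 3.69 in the Tie-2-Etv2 arrays and 3.35 in the control array. Of 4 mast cell markers tested, Cpa3, a mast cell protease gene, was called higher (3.91 and 2.71), and the mast cell genes Ms4a2, Fcer1a, Cma1 and Mcpt4 and the eosinophil genes Epx and Prg2 were above background on no array. Endothelial markers were called higher in 9 of 12, with summed levels of 5.69 and 4.68, against 3.39 in control. Macrophage markers were called lower in 10 of 12, with summed levels of 3.15 and 4.35, against 6.31 in control. Lyz2 was called higher (1.15 and 1.01), and Itgam lay above control on both arrays (1.24 and 0.84) without being called. Visceral endoderm markers were called lower in 9 of 11, with summed levels of 2.76 and 4.15, against 5.29 in control. Their median difference was -4.57 on replicate 1 and -1.19 on replicate 2, so the replicates stood apart in these genes. Mesenchyme markers were called lower in 6 of 9, with summed levels of -2.30 and -2.79, against 0.56 in control. Among the 6 above background on all 3 arrays, 4 were called lower. Lum and Dcn, also called lower, were above background in the control alone. The part of these cell types in the members' differences was not tested.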

How the data were processed

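RNA of VE-cadherin+ CD45+ yolk sac cells was labelled with Cy3 on 1-colour Agilent arrays of design 028005, 2 for Tie-2-Etv2 and 1 for control. Per the file headers, the authors' deposited intensity values come from Agilent Feature Extraction 10.7.3.1 (10.7 in the submitters' processing notes), which subtracted background and set a surrogate for very dim spots. A second table by the authors holds log2 values. Between arrays they differed as the log2 processed signal did, to within 0.01 in 100% of 55668 probes, once a constant was taken off for each Tie-2-Etv2 array (-0.756 and 0.0161). Its column medians were 0.136, 0 and 0 for Tie-2-Etv2 replicates 1 and 2 and control; how its rows were centred stays unknown.

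Control spots were dropped, as were 168 to 174 outlier spots on an array; saturation was marked for 0 of the remaining spots. Log2 processed signal was averaged over spots and reduced by the array's 75th percentile over 22764 probes that all arrays detected well above background. The 26217 probes so detected in control, or else on each Tie-2-Etv2 array, entered the test by limma 3.58.1 (lmFit, then eBayes, in R 4.3.3), two-sided, Benjamini-Hochberg adjusted. The 1 residual degree of freedom is the spread of the Tie-2-Etv2 replicates, and the lone control is assumed to vary like it. An exact permutation test of these 3 arrays cannot go below p = 0.333. Each gene was read from 1 probe, that whose 2 group means had the highest average. The fit was tested on simulated data.

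Members and lists were chosen with earlier results of these data known. The text names all members, Etv2, Cdh5 and Ptprc, up to 4 called genes of each list with the largest smaller difference, and, among genes with a RefSeq symbol, the 3 nearest to the highest and lowest member detected on all arrays; other genes were named after their values were seen. Symbols were updated through RefSeq (GRCm38.p6): 26582 probes by accession, 2602 by symbol and 497 by synonym.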

Additional observations from a re-analysis of the deposited data

How the results depend on the processing

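Of the member differences, run under up to 9 alternatives on 3 arrays, only Car1 changed sign, to 0.0173 with normexp. With normexp Car2 (2.74, adjusted p = 3.67e-07 in limma's test) and Gfi1b (1.60, adjusted p = 0.0208) passed the test; no member passed under any other alternative. Genes passing numbered 614 with normexp and 440 without the filter on detection, against 0 under each other alternative. Genes called higher were 312 with normexp, 502 with probes detected on all arrays and 1317 with no filter, against 768; genes called lower were 491 with normexp and 593 with probes detected on all arrays, against 1300. The cause was not tested, beyond fewer or more genes being tested under the filters. Members called lower, 2 in the text, were 0 with normexp and 1 (Slc4a1) with probes detected on all arrays. Klf1, Rhd and Car1 gave no value there. With no filter on dim probes, members called lower were 3, Ank1, above background on no array, being added. Other erythroid genes called higher were 2 with normexp, against 4; those called lower were 1 with normexp, and 2 with probes detected on all arrays or with dim values at the lowest detected level, against 4. Their median, 0.03, was 0.13 with normexp, 0.13 with probes detected on all arrays, -0.0515 with spike-in scaling and -0.0399 with the deposited table.

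With a single Tie-2-Etv2 array, a value with no test, Gata1 was -1.09 on replicate 1 and 0.82 on replicate 2, the only member to change sign. The ranges were 2.21 to 3.50 for Car2, 1.58 to 1.77 for Gfi1b, -2.09 to -0.67 for Klf1, -3.34 to -2.06 for Rhd and -1.93 to -1.69 for Slc4a1. Counts called on the single array were 900 to 1789 genes higher and 1634 to 2193 lower, 2 to 4 members higher and 2 to 5 lower, and 5 to 8 other erythroid genes higher and 4 to 13 lower, with medians of 0.0653 to 0.112. The mesenchyme median, -3.69, was -0.79 with normexp and -2.21 with dim values at the lowest detected level. It was -2.67 with no filter and with probes detected on all arrays. No paired analysis was possible because the control group has 1 sample with no replicate number in its label. Dim probes limit the members called lower.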
